A study of Saccharomyces cerevisiae with 4 samples.

Results

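Divergent promoters lie between the starts of neighbouring genes that are read away from each other, so 1 stretch of DNA serves as the upstream region of both. The members were the array probes whose deposited annotation is a divergent promoter, on nuclear chromosomes and not excluded on any array. They came to 3377 of the 41775 data probes, and 1 further probe with that annotation was lost to the exclusion flag. Probes that shared a pair of genes were averaged into a region, which gave 1362 divergent regions among 10905 regions of all kinds. These held 2724 genes, each in 1 pair only. No filter on low signal was applied, so every region entered the fit. A region had 1 to 8 probes (median 2), and 442 regions had a single probe. The starts of the partners lay 51 to 3857 bases apart, with a median of 564 bases.

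The data were chromatin immunoprecipitation arrays (ChIP-chip) of RNA polymerase II in the budding yeast Saccharomyces cerevisiae. Rpb4, a subunit that pairs with Rpb7 on a stalk of the enzyme and can leave it, was tagged in one strain, and Rpb3, a subunit of the core, was tagged in another. Both strains are labelled S288c, both carried the tag as a TAP fusion (a protein-A-containing affinity tag caught on IgG beads), and each gave 2 arrays. All cells grew in rich glucose medium (YPD) at 25 °C to log phase at an optical density of 0.8, and formaldehyde (1%, 20 min) was the fixative. After shearing, fragments measured about 400 to 500 bases, and immunoprecipitated DNA (IP, Cy5) was hybridised together with whole-cell extract DNA (WCE, Cy3) to probes of 60 nucleotides about 290 bases apart. Without an untagged strain or mock precipitation among the arrays used here, the level a tag-free strain would give is not known.

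As background, RNA polymerase II is recruited to a promoter by general transcription factors at each gene's own start site, and a divergent gap can hold separate initiation complexes for its genes. The gap is commonly depleted of nucleosomes, while the polymerase that carries on into the genes is found over their bodies. Several textbook examples of yeast gene control are divergent: GAL1 and GAL10, which galactose induces and glucose represses, and the core histone genes, whose pairs are expressed together in S phase.

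A level is a log2(IP/WCE) with the median data probe of its array set to 0, and a region at 0 is therefore an average one, not one free of polymerase. The 2 Rpb4 arrays had median absolute deviations of 0.334 and 0.329 over data probes, and the Rpb3 arrays had 0.326 and 0.460, so the Rpb3 array 2 was the widest. Median foreground signals were 3883 to 7065 in the IP channel and 7615 to 8646 in the WCE channel, against local backgrounds of 50.0 to 56.0. The extracts of the strains differed on chromosome 9, where the WCE level of its 53 divergent regions was lower in the Rpb4 strain by a median of 0.40 (log2), against a median of 0.09 higher in the Rpb4 strain for the other 1309 regions. The labels do not say whether the arrays of 1 group had cultures of their own, and p-values measure the spread between arrays, which may be technical.

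Divergent promoters carried less polymerase signal than the median probe in both groups, and less with Rpb4 than with Rpb3. The median region stood at -0.294 and -0.303 on the Rpb4 arrays, against -0.077 and -0.077 on the Rpb3 arrays. In single-gene promoters the median region stood at 0.212 and 0.187 on the Rpb4 arrays, against 0.349 and 0.354 on the Rpb3 arrays. The Rpb4 arrays lay below the Rpb3 arrays for both kinds of promoter, and divergent regions lay below single-gene regions on each of the 4 arrays, with differences of -0.506 and -0.490 with Rpb4 and of -0.426 and -0.431 with Rpb3. With 4 arrays a sign-flip permutation test cannot go below p = 0.125, the exact two-sided value found for that difference, and 2 arrays against 2 cannot go below p = 0.333, the exact permutation value found for Rpb4 against Rpb3.

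The channels did not share this gap evenly. Divergent regions had a median WCE level of -0.067 and -0.069 with Rpb4 and of -0.138 and -0.164 with Rpb3, against single-gene medians of -0.433 and -0.413 with Rpb4 and of -0.485 and -0.525 with Rpb3. The WCE level of divergent regions was thus higher than that of single-gene regions by 0.366 and 0.344 on the Rpb4 arrays and by 0.347 and 0.361 on the Rpb3 arrays. In the IP channel divergent regions were lower than single-gene regions by only 0.120 and 0.126 with Rpb4 and by 0.070 and 0.073 with Rpb3. Most of the ratio difference between the kinds of promoter therefore lay in the extract channel, and what moved that channel was not tested. Between the groups, the divergent median was lower with Rpb4 by 0.142 in the IP channel and higher with Rpb4 by 0.083 in the WCE channel.

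**Figure D1:**
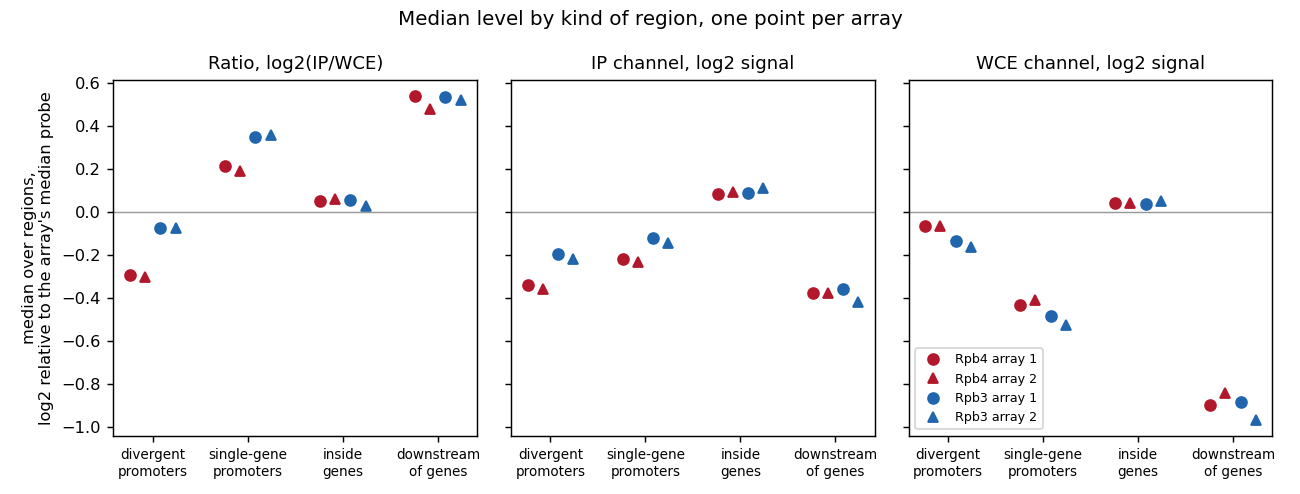
Median over regions for 4 kinds of region, on each of the 4 arrays (red Rpb4, blue Rpb3), for the log2 ratio (left), the IP channel (middle) and the WCE channel (right), each in log2 units relative to the array's median probe. Divergent promoters are the only kind of the 4 whose median ratio is below 0 on all arrays, and their WCE level lies nearer 0 than that of single-gene promoters.

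Tested region by region with limma against the median probe, 182 divergent regions (13.4%) were above and 740 (54.3%) were below it with Rpb4. Over all 10905 regions the shares were 37.8% above and 25.5% below. With Rpb3, 368 divergent regions (27%) were above and 477 (35%) below, against 42.8% above and 23.8% below over all regions. In both groups 174 regions were above and 446 were below, 30 were below with Rpb4 and above with Rpb3, and 1 was the other way round. These splits depend on where 0 is set. With each array centred on its 319 probes of meiosis and sporulation genes, which lay 0.513 to 0.601 below the median probe, 672 divergent regions were above and 82 below with Rpb4, and 980 were above and 49 below with Rpb3. Without the Rpb4 array 1 the Rpb4 counts were 70 above and 167 below, and without the Rpb4 array 2 they were 72 above and 180 below.

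The highest divergent region, averaged over the 4 arrays, was UTR5-HYP2, where HYP2 is the gene of translation factor eIF5A. Its starts lie 130 bases apart on chromosome 5 and its single probe stood at 2.23 and 2.21 with Rpb4, against 3.56 and 4.64 with Rpb3. The bodies of both partners were high as well, with means of 1.80 for UTR5 and 1.998 for HYP2 with Rpb4, against 2.97 and 3.48 with Rpb3. SOP4-RPS14B, where RPS14B encodes a protein of the small ribosomal subunit, stood at 2.43 and 2.28 with Rpb4, against 2.95 and 3.59 with Rpb3. Here the partners differed: the RPS14B body was at 2.68 with Rpb4 and 3.41 with Rpb3, and the SOP4 body at -0.14 in both groups. Of the 2 probes of the gap, the one 54 bases before the RPS14B start read 3.39 and 3.30 with Rpb4, against 4.01 and 4.81 with Rpb3. The one nearer the SOP4 start (position -150 bases from it) read 1.47 and 1.27 with Rpb4, against 1.89 and 2.37 with Rpb3, so the signal was graded towards the ribosomal protein gene.

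All 4 pairs of core histone genes were above the median probe in both groups. HHT2-HHF2, an H3 and H4 pair probed from 576116 to 576737 on chromosome 14, stood at 2.15 and 2.11 with Rpb4, against 2.67 and 2.98 with Rpb3. The second H3 and H4 pair, HHF1-HHT1, stood at 1.54 and 1.40 with Rpb4, against 1.90 and 2.18 with Rpb3. HTB1-HTA1, an H2B and H2A pair, stood at 1.54 and 1.47 with Rpb4, against 1.89 and 2.30 with Rpb3, and HTA2-HTB2, the other such pair, stood at 1.17 and 1.19 with Rpb4, against 1.79 and 1.89 with Rpb3. On every Rpb3 array each histone pair was higher than on both Rpb4 arrays, and HTA2-HTB2 passed the test of that difference (-0.67 ± 0.074 (SE), adjusted p = 0.0385), a call lost with the spread of the arrays set equal, with quantile normalization, normexp background correction, centring on the meiosis genes or a trended and robust limma fit, and without either Rpb4 array. The other 2 regions of the histone list differed from these: HTZ1-PLB3, with the H2A.Z gene, stood at 0.26 and 0.28 with Rpb4, against 0.23 and 0.23 with Rpb3, and HHO1-NAN1, with the linker histone gene, stood at -0.22 and -0.28 with Rpb4, against 0.04 and -0.25 with Rpb3 and passed neither test of level. In group means no histone gap exceeded a histone gene body measured beside it, but on the Rpb3 array 1 HHO1-NAN1 (0.04) exceeded the HHO1 body (-0.11) and HTA2-HTB2 (1.79) the HTB2 body (1.73). HTA2 and HTB2 had body levels of 2.07 and 1.69 with Rpb4, against 2.48 and 1.93 with Rpb3, and the mean of their gap was lower than both in each group.

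Other high regions came from several functions. HPF1-ZPS1, with the cell wall mannoprotein gene HPF1, stood at 2.15 and 2.14 with Rpb4, against 2.04 and 2.66 with Rpb3, and the groups overlapped. EPL1-BUD27, with a subunit gene of the NuA4 acetyltransferase, stood at 1.94 and 1.97 with Rpb4, against 2.02 and 2.13 with Rpb3, where both Rpb4 arrays were below both Rpb3 arrays by little. SSA1-EFB1, a Hsp70 chaperone gene beside a translation elongation factor gene, stood at 1.75 and 1.61 with Rpb4, against 1.75 and 2.05 with Rpb3. Here both bodies were high too, at 1.68 and 1.87 with Rpb4, against 1.604 and 2.04 with Rpb3.

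The lowest regions that passed the test came next to genes of low level as well as high ones. LOH1-IRC18 stood at -1.12 and -0.998 with Rpb4, against -0.87 and -1.32 with Rpb3, with bodies of -0.91 and -1.06 with Rpb4, against -0.78 and -1.10 with Rpb3. ANS1-YHR127W stood at -1.05 and -1.14 with Rpb4, against -1.04 and -1.69 with Rpb3, and SEO1-YAL064W-B, beside a putative permease gene, at -1.10 and -1.12 with Rpb4, against -0.93 and -0.74 with Rpb3. The SEO1 gap holds a further protein-coding gene. COQ6-GND2, a coenzyme Q synthesis gene beside a 6-phosphogluconate dehydrogenase gene, stood at -1.01 and -0.94 with Rpb4, against -0.92 and -1.30 with Rpb3. A tRNA gene lies in this gap, which was read by 1 probe. The WCE level of that probe was low, at -1.334 and -1.335 with Rpb4, against -1.413 and -1.590 with Rpb3. The region drops out when the probes of lowest WCE signal are left out. The 4 regions were low on every array, but the Rpb3 array 2 gave the lowest value for 3 of them. AAC1-FET3, with the iron-uptake oxidase gene FET3, was also read by 1 probe. It was low with Rpb4 at -1.08 and -1.08, but the Rpb3 arrays disagreed at -0.96 and 0.05. The FET3 body stood at 0.84 with Rpb4 against 0.16 with Rpb3.

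Some divergent gaps hold another gene. By the RefSeq annotation, used here for names and neighbours, 14 gaps held a small nucleolar or small nuclear RNA gene (snoRNA, which guide the modification and processing of ribosomal RNA, and snRNA, the RNAs of the spliceosome). This grouping was chosen after values had been seen and is a description. Its median region stood at 1.146 and 1.142 with Rpb4, against 1.708 and 1.764 with Rpb3, while the 1217 gaps with no gene between stood at -0.289 and -0.294 with Rpb4, against -0.070 and -0.073 with Rpb3. Of the 14 regions, 12 were above and 1 was below the median probe with Rpb4, and 13 were above and 0 below with Rpb3. The 20 highest divergent regions included 6 of them with Rpb4 and 7 with Rpb3. The 67 gaps with a tRNA gene, which RNA polymerase III transcribes, were low: their median was -0.456 and -0.446 with Rpb4, against -0.304 and -0.278 with Rpb3. Of these, 2 were above and 45 below with Rpb4, and 11 were above and 36 below with Rpb3. The tRNA gaps were long, with a median of 1559 bases between the starts, against 511 for gaps with no gene between. The 125 divergent regions of 1500 to 4000 bases, whatever they held, had similar medians. They stood at -0.431 and -0.42 with Rpb4, against -0.269 and -0.241 with Rpb3. The parts of gap length and of the tRNA gene were not tested.

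FSF1-YTM1 showed the snoRNA pattern most strongly. The gap, probed from 832119 to 832617 on chromosome 15 as the files number it (build not given in the sources used here), holds SNR8, an H/ACA snoRNA gene. It stood at 2.64 and 2.58 with Rpb4, against 3.35 and 3.89 with Rpb3, and its partners, a mitochondrial carrier gene and a ribosome assembly gene, were at -0.09 and 0.31 with Rpb4, against 0.28 and 0.40 with Rpb3. The region thus exceeded the mean of its partners by 2.50 with Rpb4 and by 3.28 with Rpb3. Probe by probe, the middle of the gap, at position -449 bases from the YTM1 start, read 3.13 and 3.12 with Rpb4, against 3.79 and 4.6 with Rpb3. At 368 bases inside YTM1 the level was back at -0.20 and -0.10 with Rpb4, against -0.02 and -0.10 with Rpb3.

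RPL33B-DFR1 holds SNR17A, a gene of the U3 snoRNA that acts in cutting the ribosomal RNA precursor, and stood at 2.29 and 2.28 with Rpb4, against 2.87 and 3.45 with Rpb3. TOS2-PET54 holds the U5 spliceosomal RNA gene SNR7, and stood at 1.38 and 1.37 with Rpb4, against 1.97 and 2.18 with Rpb3, with partner bodies between -0.24 and 0.33. TRP3-UBA1, with SNR64, stood at 1.57 and 1.57 with Rpb4, against 2.03 and 2.35 with Rpb3. NUP188-CAC2, with SNR85, stood at 1.58 and 1.62 with Rpb4, against 1.96 and 1.98 with Rpb3. NOC4-ASN1, a small-subunit assembly gene beside an asparagine synthetase gene with SNR45 between them, stood at 1.55 and 1.502 with Rpb4, against 2.20 and 2.41 with Rpb3 and passed the test of the difference (-0.78 ± 0.098 (SE), adjusted p = 0.0455), a call lost with the spread of the arrays set equal, with quantile normalization, centring on the meiosis genes or a trended and robust limma fit, and without either Rpb4 array. In these 5 gaps both Rpb4 arrays were below both Rpb3 arrays. PMD1-GLC7, with SNR52, was the 1 region below the median probe with Rpb4, at -0.25 and -0.21 with Rpb4, against 0.001 and 0.12 with Rpb3. SNR52 is a snoRNA gene known to be read by RNA polymerase III.

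**Figure D2:**
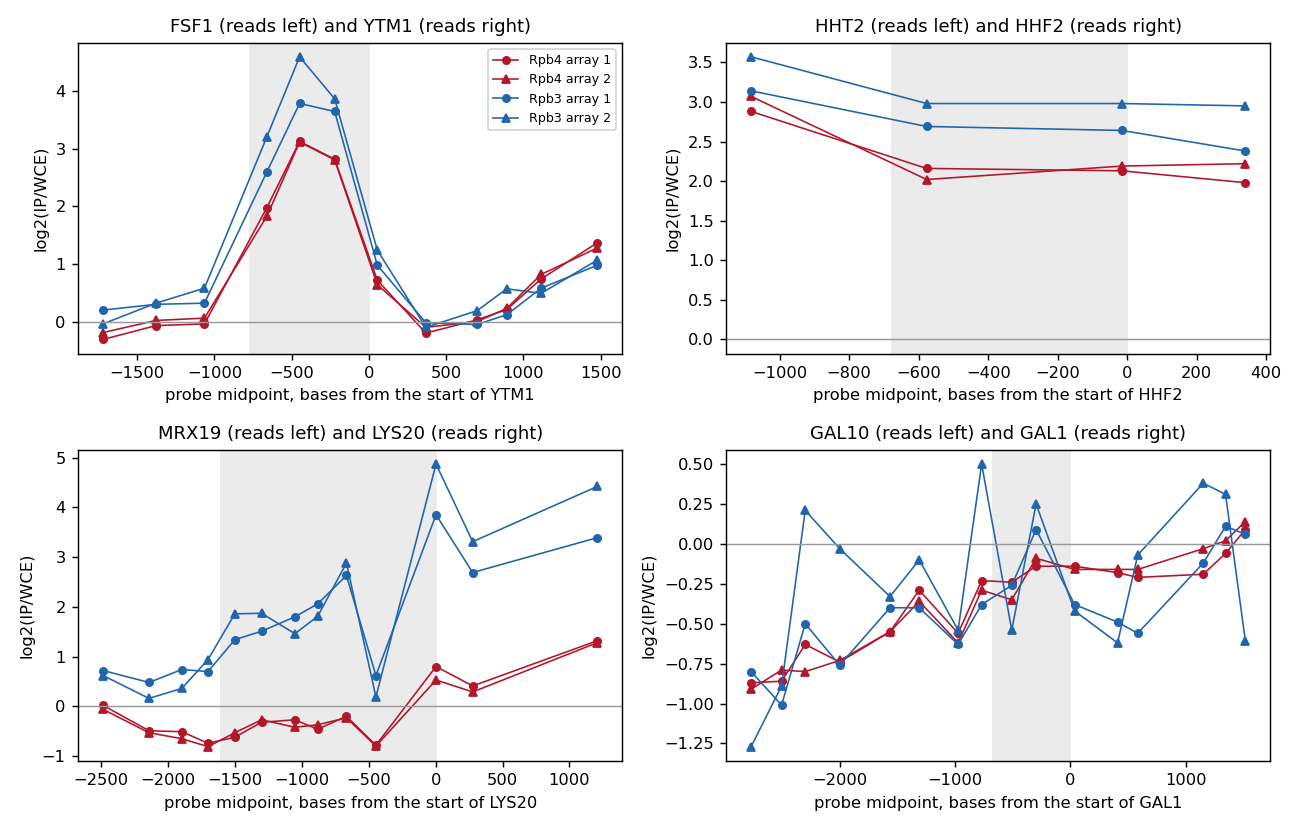
Log2(IP/WCE) of single probes along 4 divergent pairs, against distance in bases from the start of the right-hand gene; shading marks the stretch between the starts, red marks Rpb4 arrays and blue Rpb3 arrays. FSF1-YTM1 peaks within the gap, HHT2-HHF2 is high throughout, MRX19-LYS20 is separated by group across the gap and both genes, and GAL10-GAL1 stays near or below 0.

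The level of the gap was then set against the bodies of its own genes (mean of the probes inside the gene), which removes the centring of the array. Both bodies were measured for 1278 pairs. The median gap was lower than the mean of its partner bodies by 0.306 and 0.337 on the Rpb4 arrays and by 0.121 and 0.156 on the Rpb3 arrays. Single-gene promoters were higher in ratio than their gene bodies, by 0.087 and 0.048 with Rpb4 and by 0.20 and 0.228 with Rpb3. The median IP level of single-gene regions was -0.233 to -0.125 over the 4 arrays, against 0.083 to 0.108 inside genes. Their median WCE level was also lower, at -0.525 to -0.413 against 0.037 to 0.049. Divergent regions were lower than genes' insides in both channels as well. These channel medians were not taken against each region's own genes. In the limma fit 37 divergent gaps were above and 670 (52.4%) below their partners with Rpb4, against 20.1% above and 31.9% below over all 3774 promoter regions. With Rpb3, 121 were above and 395 (30.9%) below, against 31.8% above and 21.8% below. For the difference between the groups, 341 divergent gaps had an unadjusted limma p under 0.05, 330 of them lower with Rpb4. Of 2496 single-gene promoters 653 did, 573 of them lower with Rpb4. After adjustment 0 divergent gaps passed in either direction (all promoter regions: 0.132% higher and 0.45% lower with Rpb4). That count is set by the arrays: without the Rpb3 array 1 it was 187 higher and 590 lower, without the Rpb3 array 2 it was 16 higher and 595 lower, without the Rpb4 array 1 it was 0 and 3, and without the Rpb4 array 2 it was 0 and 0. The Rpb4 counts were 10 above and 162 below without the Rpb4 array 1, 14 and 122 without the Rpb4 array 2, and 75 and 1006 without either Rpb3 array. The Rpb3 counts were 304 and 631 without the Rpb3 array 1, 192 and 547 without the Rpb3 array 2, and 76 and 285 without either Rpb4 array.

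By place, taking the mean of the 4 arrays, 676 gaps (52.9%) lay below both partner bodies, 484 (37.9%) between them and 118 (9.23%) above both. With Rpb4 the counts were 839 below both, 377 between and 62 above both. With Rpb3 they were 525, 524 and 229. The dip was deeper in long gaps than in short ones. With 1500 to 4000 bases between the starts (110 pairs) the median gap minus bodies was -0.457 and -0.448 with Rpb4, against -0.378 and -0.380 with Rpb3. It was -0.450 and -0.490 with Rpb4, against -0.278 and -0.408 with Rpb3, at 1000 to 1500 bases (120 pairs). Under 300 bases (272 pairs) it was -0.238 and -0.258 with Rpb4, against -0.022 and -0.032 with Rpb3. Distance to the nearest start gave the same order. Probes within 100 bases of a start had a median of -0.242 and -0.240 with Rpb4, against -0.019 and -0.030 with Rpb3 (1208 probes). Those 400 to 600 bases away had -0.50 and -0.531 with Rpb4, against -0.351 and -0.374 with Rpb3 (312 probes). Fragments of 400 to 500 bases are about as long as the median gap, so a probe between the starts also reads DNA that reaches into the genes.

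Partners of 1 gap were often unequal. The difference between partner bodies had a median of 0.34 (quartiles 0.15 and 0.70, highest 4.39), and it was over 1 in 182 pairs and over 2 in 36. Across pairs the 2 partner bodies had a Pearson correlation of 0.15 with Rpb4 and 0.16 with Rpb3 (1278 pairs). Tandem neighbours had 0.22 with Rpb4 and 0.26 with Rpb3 (2442 pairs), and convergent neighbours, whose ends face each other, had 0.47 in both groups (1361 pairs). The gap followed the mean of its partners with a correlation of 0.68 with Rpb4 and 0.69 with Rpb3. It followed the higher partner at 0.63 in both groups, and the lower one at 0.55 with Rpb4 and 0.57 with Rpb3. These points share arrays and lie side by side on the DNA, so the correlations are descriptions.

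In the 182 pairs whose bodies differed by over 1, the gap was asymmetric. Each gap was split into 5 equal segments, which held 94 to 130 probes each. The segment next to the higher partner's start had a median of 0.801 and 0.800 with Rpb4, against 1.293 and 1.430 with Rpb3. The next segment had 0.013 and 0.006 with Rpb4, against 0.430 and 0.447 with Rpb3. The one before the last was the lowest, at -0.422 and -0.486 with Rpb4, against -0.195 and -0.217 with Rpb3, and the last one, at the lower partner's start, had -0.341 and -0.318 with Rpb4, against -0.110 and -0.121 with Rpb3. The signal thus fell within the part of the gap nearer the strong gene. The median separation of the groups (Rpb4 minus Rpb3) was -0.56 in the first segment and -0.21 over the body of the higher partner. In the 1096 pairs with closer partners the profile was a shallow trough, with -0.428 and -0.476 with Rpb4, against -0.227 and -0.250 with Rpb3, in the middle segment and nearly the same in the next one towards the lower partner.

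**Figure D3:**
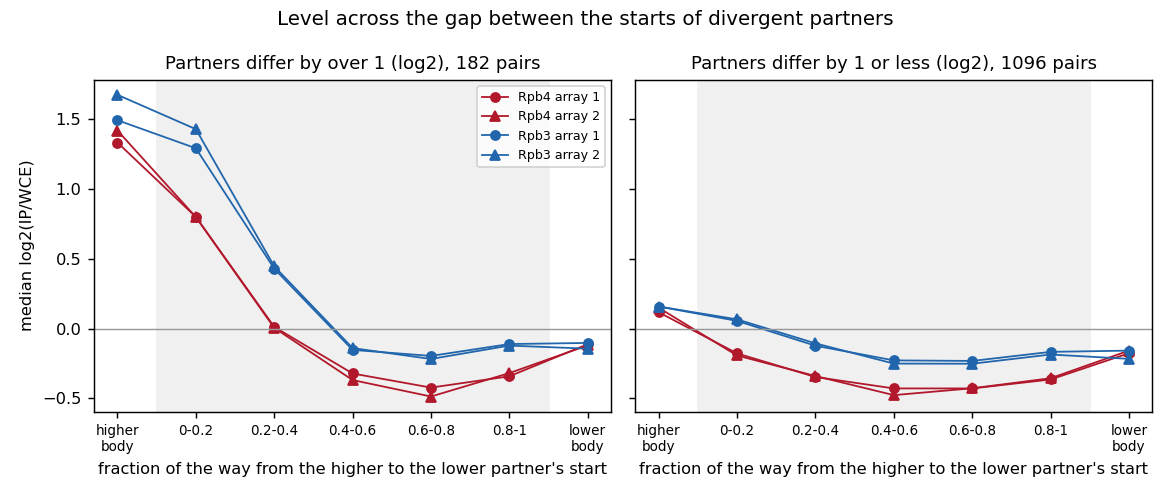
Median log2(IP/WCE) over the body of the higher partner, over 5 equal segments of the distance between the starts (shaded, from the higher to the lower partner) and over the body of the lower partner, on each array (red Rpb4, blue Rpb3). With partners that differ by over 1 (left) the level drops within the first 2 segments, and with closer partners (right) the trough is shallow; the Rpb4 lines lie below the Rpb3 lines throughout the gap.

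The widest partner difference was at ADH1-PHM7, with the main fermentative alcohol dehydrogenase gene: the ADH1 body was at 3.67 with Rpb4 and 3.50 with Rpb3, the PHM7 body at -0.80 with Rpb4 and -0.81 with Rpb3. Its gap, which holds a further protein-coding gene, stood at 0.44 and 0.37 with Rpb4, against 0.30 and 0.49 with Rpb3, nearer the low partner. ILV5-ATG33, with a branched-chain amino acid synthesis gene, had bodies of 3.29 and -0.40 with Rpb4, against 4.25 and -0.19 with Rpb3, and its gap stood at 0.52 and 0.45 with Rpb4, against 1.24 and 1.14 with Rpb3. ATG40-PDR5, with a multidrug pump gene, had bodies of 0.79 and 3.94 with Rpb4, against 0.87 and 4.27 with Rpb3, and its gap stood at 1.40 and 1.34 with Rpb4, against 1.90 and 2.01 with Rpb3. These gaps lay between their partners. With dim probes (those of lowest WCE signal) left out, the Rpb4 level of the ILV5-ATG33 gap turned to -0.26 and its difference between the groups no longer passed, and the ADH1-PHM7 gap turned to -0.16 with Rpb4 and -0.22 with Rpb3. In DUF1-MHF1 the high body was that of MHF1 (YOL086W-A), at 3.61 with Rpb4 and 3.93 with Rpb3; its systematic name places it beside ADH1 (YOL086C), and which gene its signal belongs to was not tested.

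Averaged over the groups, the deepest dip was at CYC3-CDC19, and YGL007C-A-YGL006W-A came second. YGL007C-A-YGL006W-A stood at -0.25 and -0.29 with Rpb4, against -0.17 and -0.28 with Rpb3, and its gap minus bodies value was -1.19 and -1.15 with Rpb4, against -1.59 and -2.65 with Rpb3, so the Rpb3 arrays disagreed. Another protein-coding gene lies in its gap. PUP2-ENO1 and TDH2-MET3 came next, and these pairs and that of CDC19 hold glycolytic genes. CYC3-CDC19, with the pyruvate kinase gene CDC19, stood at -0.26 and -0.29 with Rpb4, against -0.07 and -0.09 with Rpb3, while the CDC19 body was at 3.32 with Rpb4 and 3.39 with Rpb3. The gap minus bodies value was -2.008 with Rpb4 and -2.005 with Rpb3. PUP2-ENO1, a proteasome subunit gene beside an enolase gene, stood at 0.30 and 0.20 with Rpb4, against 0.20 and 0.30 with Rpb3, lower than its partners by 1.72 with Rpb4 and by 1.52 with Rpb3. TDH2-MET3, a glyceraldehyde-3-phosphate dehydrogenase gene beside the sulfate assimilation gene MET3, stood at 0.06 and 0.02 with Rpb4, against 0.005 and -0.03 with Rpb3, with a TDH2 body of 3.31 with Rpb4 and 3.40 with Rpb3. The 3 glycolytic gaps span 2260, 1786 and 1557 bases, and the differences between the groups were -0.19, -0.003 and 0.05. With dim probes left out the CDC19 gap kept its sign, but the Rpb4 levels of TDH2-MET3 and PUP2-ENO1 turned to -0.61 and -0.09.

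The Rpb4 and Rpb3 levels of the same region were then compared. The difference (Rpb4 minus Rpb3) was negative in 1131 of 1362 divergent regions, with a median of -0.20, against a median of -0.05 over all 10905 regions. The median over regions ranged from -0.23 to -0.19 over the 4 pairings of an Rpb4 with an Rpb3 array. It ranged from -0.17 to -0.14 in single-gene promoters and from -0.01 to 0.03 inside genes. Both Rpb4 arrays lay below both Rpb3 arrays in 883 divergent regions (64.8%), against 40% of all regions, and above both in 46, against 21.8% of all regions. At an unadjusted limma p under 0.05, 548 divergent regions were lower and 7 higher with Rpb4. Of 2591 single-gene promoters, 743 were lower and 77 higher, and the share over all regions is not given here. After adjustment, 38 divergent regions (2.79%) were lower and 1 (0.0734%) was higher with Rpb4. The shares were 2.34% and 0.413% of all regions, and 3.59% and 0.309% of single-gene promoters. The share of lower calls was thus near that of all regions, and the share of higher calls was smaller. The count rests on the spread of the arrays. Without the Rpb3 array 1 the counts were 211 higher and 739 lower, without the Rpb3 array 2 they were 13 and 805, without the Rpb4 array 1 they were 0 and 1, and without the Rpb4 array 2 they were 0 and 0.

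The shortfall of Rpb4 grew with the level of the region. In the 245 divergent regions whose mean over the 4 arrays was under -0.5 the median difference was -0.03, with pairings of arrays from -0.16 to 0.09. It was -0.19 in the 655 regions from -0.5 to 0, -0.30 in the 323 from 0 to 0.5, -0.39 in the 86 from 0.5 to 1, and -0.50 in the 53 above 1. Single-gene promoters in the same bins had -0.02, -0.08, -0.12, -0.21 and -0.43, and genes' insides had 0.04, 0.05, 0.01, -0.06 and -0.25. In all 5 bins the divergent median was the more negative of the 2 kinds of promoter, a difference that was not tested. The ranges over pairings of arrays overlapped in the lowest bin (single-gene promoters -0.09 to 0.05). They also overlapped in the highest bin (-0.66 to -0.36 in divergent regions, -0.56 to -0.31 in single-gene promoters). The Rpb3 array 2 had the widest spread, and its part in the trend with level was not tested. By distance, the median difference was -0.22 within 100 bases of a start. It was -0.26 at 100 to 200 bases, -0.25 at 200 to 300 bases and -0.11 at 600 to 1000 bases. Single-gene promoters had -0.19, -0.17, -0.16 and -0.08 at the same distances.

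**Figure D4:**
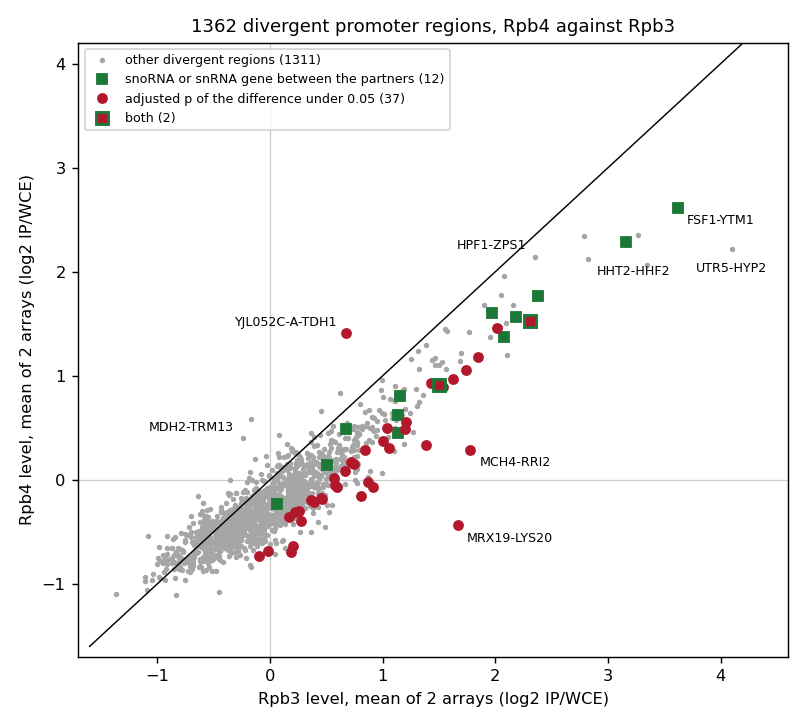
Level of each of the 1362 divergent regions with Rpb4 (vertical) against Rpb3 (horizontal), means of 2 arrays in log2(IP/WCE); the line marks equal levels, squares mark gaps with a snoRNA or snRNA gene and red marks the 38 lower and 1 higher regions that passed the test of the difference. Most points above the median probe lie under the line, MRX19-LYS20 lies farthest below it, and YJL052C-A-TDH1 is the red point above it.

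The largest difference was at MRX19-LYS20, whose right-hand gene encodes homocitrate synthase of lysine synthesis. Its 6 probes, from 131908 to 133021 on chromosome 4 as the files number it, stood at -0.44 and -0.44 with Rpb4, against 1.66 and 1.68 with Rpb3 (difference -2.11 ± 0.065 (SE), adjusted p = 0.0236). The groups were far apart in both channels: the IP signal was lower with Rpb4 by 1.49 and the WCE signal higher by 0.63. The LYS20 body differed more, at 0.77 with Rpb4 against 3.75 with Rpb3, and the MRX19 body stood at -0.47 with Rpb4 against 0.59 with Rpb3. All 6 probes of the gap were lower on both Rpb4 arrays than on both Rpb3 arrays, down to the probe 446 bases before LYS20, which read -0.78 and -0.80 with Rpb4, against 0.62 and 0.19 with Rpb3.

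MCH4-RRI2, a monocarboxylate-permease-like gene beside a COP9 signalosome gene, stood at 0.30 and 0.28 with Rpb4, against 1.69 and 1.87 with Rpb3 (difference -1.49 ± 0.091 (SE), adjusted p = 0.0236). It exceeded both its bodies, which were at -0.09 and -0.32 with Rpb4, against 0.92 and -0.06 with Rpb3. Its gap holds a further protein-coding gene, whose share of the signal was not tested. LEU4-MET4, a leucine synthesis gene beside the activator gene of sulfur metabolism, stood at 0.29 and 0.39 with Rpb4, against 1.36 and 1.41 with Rpb3 (difference -1.05 ± 0.075 (SE), adjusted p = 0.0236). COX9-IDP1, a cytochrome oxidase subunit gene beside a mitochondrial isocitrate dehydrogenase gene, stood at -0.10 and -0.04 with Rpb4, against 0.83 and 0.99 with Rpb3 (difference -0.98 ± 0.088 (SE), adjusted p = 0.0293). SET5-BAT1, with the mitochondrial branched-chain aminotransferase gene, stood at -0.16 and -0.15 with Rpb4, against 0.67 and 0.95 with Rpb3 (difference -0.96 ± 0.115 (SE), adjusted p = 0.0426). GLY1-IES6, with the threonine aldolase gene of glycine synthesis, stood at -0.02 and -0.04 with Rpb4, against 0.82 and 0.91 with Rpb3 (difference -0.89 ± 0.073 (SE), adjusted p = 0.0268). In each of these the groups did not overlap, with Rpb4 levels between -0.16 and 0.39 and Rpb3 levels between 0.67 and 1.87. With dim probes left out, though, the Rpb3 level of GLY1-IES6 turned to -0.28.

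Of the 38 lower regions, 3 were lower by over 1, 36 had both a lower IP signal and a higher WCE signal with Rpb4, and in 2 the WCE part was the larger. Both partner bodies were measured in 37 of them and both were lower with Rpb4 in 31. This counts the sign of a difference of any size, down to -0.012 at the CRS1 body beside -0.529 for its gap. The body differences were not tested, and the same share over other regions is not given here. Only 2 of the 38 lay on chromosome 9, and 35 were left when that chromosome and regions with a WCE difference over 0.5 were left out. The IP signal alone gave 49 lower and 2 higher. The WCE signal alone gave 71 higher and 55 lower with Rpb4. Shares of these single-channel calls over all regions are not given here, and the sizes of the extract differences were not compared.

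By gene list, amino acid synthesis and cytosolic ribosomal protein genes held 11 each of the 38. Of 36 regions with an amino acid synthesis gene, 11 were lower with Rpb4 and 0 higher, 35 had a negative difference and the median was -0.53. Besides the pairs of LYS20, LEU4, BAT1 and ILV5, they included HIS6, ASN1, ARO2, LYS4, THR1 and ARO8, named because they passed. Of 70 regions with a cytosolic ribosomal protein gene, 11 were lower and 0 higher, 69 had a negative difference and the median was -0.46. RPS15-RPP2A differed by -0.69, RPS22A-RPL39 by -0.66, and RPL13B-RPS16A by -0.59. In level, 33 of the 70 were above and 10 below the median probe with Rpb4, against 55 above and 2 below with Rpb3. Of 13 regions with an aminoacyl-tRNA synthetase gene, 3 were lower (those of KRS1, THS1 and DED81), with a median of -0.50 and all 13 negative. The list leaves out the cysteinyl-tRNA synthetase gene CRS1, whose region RPA49-CRS1 was also lower (difference -0.53 ± 0.067 (SE), adjusted p = 0.047). The DED81 gap is shared with YHR020W, which is on the same list.

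Other lists held few calls. Over all 1362 divergent regions 1131 had a negative difference and the median was -0.20. The medians of the mitochondrial ribosomal protein, heat shock, cell cycle and meiosis lists given below were no more negative than that. Of 42 ribosome biogenesis regions, 4 were lower (median -0.32, 40 negative). All 18 translation factor regions, all 20 proteasome regions and all 16 nucleotide synthesis regions had a negative difference, with medians of -0.37, -0.31 and -0.34, and 0 passed in either direction in each. For proteasome genes 10 regions were above and 2 below the median probe with Rpb4, against 15 above and 1 below with Rpb3. Of 45 regions with a mitochondrial ribosomal protein gene or related gene, 1 was lower, that of MRX19 and LYS20, and the median was -0.19. Of 23 respiration and citric acid cycle regions, 1 was lower, COX9-IDP1, and the median was -0.28. Heat shock and oxidative stress genes (18 regions, median -0.11) and cell cycle genes (13 regions, median -0.19) had 0 passing regions. Meiosis and sporulation genes, largely silent in rich medium, were low in both groups: 27 of 32 regions were below the median probe with Rpb4, against 25 with Rpb3, the median difference was -0.05, and the 1 lower region was TMA7-RED1. The share of lower calls over all regions was 2.34%, beside which the amino acid and ribosomal protein counts stand high as a description. The lists were written with earlier results known. Level also differed: the ribosomal protein list had median levels of 0.22 with Rpb4 and 0.69 with Rpb3, and the amino acid list -0.29 and 0.22. Divergent regions with a mean level from -0.5 to 0 had a median difference of -0.19, those from 0 to 0.5 had -0.30, and those from 0.5 to 1 had -0.39. The part of level in these counts was not tested.

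Only 1 divergent region was higher with Rpb4. YJL052C-A-TDH1, upstream of a glyceraldehyde-3-phosphate dehydrogenase gene, stood at 1.44 and 1.38 with Rpb4, against 0.59 and 0.75 with Rpb3 (difference 0.74 ± 0.089 (SE), adjusted p = 0.0426). Its IP signal was higher with Rpb4 by 0.35 and its WCE signal lower by 0.38, and the TDH1 body stood at 1.90 with Rpb4 against 1.08 with Rpb3. Of the 12 glycolysis and fermentation regions this 1 was higher, 0 were lower and 7 had a negative difference (median -0.03). PGM2-YMR105W-A, with a phosphoglucomutase gene, stood at 0.62 and 0.54 with Rpb4, against -0.06 and -0.27 with Rpb3, and MDH2-TRM13, with the cytosolic malate dehydrogenase gene of gluconeogenesis, at 0.42 and 0.39 with Rpb4, against -0.32 and -0.16 with Rpb3. Both had groups that did not overlap and missed the threshold narrowly, with adjusted p of 0.0514 and 0.0510. The MDH2 body stood at 2.14 with Rpb4 against 0.01 with Rpb3. YPR159C-A-GPH1, with the glycogen phosphorylase gene, stood at -0.15 and -0.16 with Rpb4, against -0.53 and -0.74 with Rpb3 (difference 0.48 ± 0.097 (SE), adjusted p = 0.0896), and PHO5-PBY1, with the repressible acid phosphatase gene, at 0.17 and 0.23 with Rpb4, against -0.12 and -0.15 with Rpb3 (difference 0.33 ± 0.069 (SE), adjusted p = 0.0922).

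**Figure D5:**
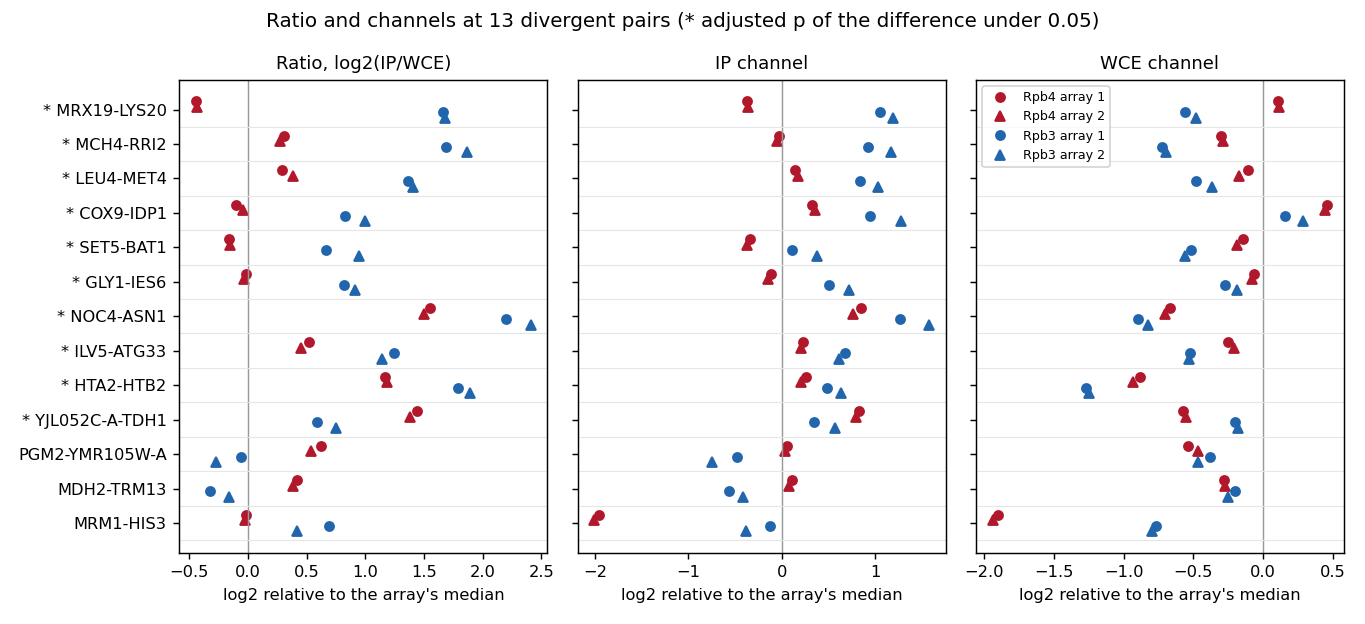
Ratio (left), IP signal (middle) and WCE signal (right) of 13 divergent pairs on each array (red Rpb4, blue Rpb3), in log2 units relative to the array's median; a star marks pairs that passed the test of the difference. In the 9 starred pairs at the top the Rpb4 points lie left of the Rpb3 points in ratio and IP and right of them in WCE, while YJL052C-A-TDH1 shows the reverse.

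Some pairs had extract signals that set them apart. At MRM1-HIS3, a gap with 1 probe, the ratio stood at -0.02 and -0.03 with Rpb4, against 0.69 and 0.42 with Rpb3. The IP signal was lower with Rpb4 by 1.73 and the WCE signal lower by 1.14, so both channels read less at that probe in the Rpb4 strain. The HIS3 body stood at 1.37 and 4.41 with Rpb4, against 1.21 and 1.40 with Rpb3, so the Rpb4 arrays disagreed there. At DUR1,2-ERV15, whose gap holds 3 further genes and was read by 1 probe, the IP signal was higher with Rpb4 by 1.90 and the WCE signal by 1.54. The IP level of that probe was low on the Rpb3 arrays, at -3.57 and -3.72. Its ratio stood at -0.53 and -0.56 with Rpb4, against -0.89 and -0.93 with Rpb3. The difference was 0.37 with an adjusted p of 0.0764. SOK1-TRP1, beside a common marker gene, stood at -0.30 and -0.24 with Rpb4, against 0.04 and -0.17 with Rpb3 with a WCE difference of 0.014, while the TRP1 body stood at 1.86 and 4.24 with Rpb4, against 0.30 and 0.28 with Rpb3, so the Rpb4 arrays were far apart there. For these pairs the part of strain differences in the ratio was not tested.

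The tagged subunit's own locus was among the divergent pairs for Rpb4. YAK1-RPB4 stood at 0.15 and 0.15 with Rpb4, against 0.26 and 0.04 with Rpb3, with a difference of -0.001 ± 0.098 (SE), and the groups overlapped. Which end of the gene carries the tag is not given in the sources used here, so this gap does not check the labels. RPB7-MRP20, with the gene of the partner subunit Rpb7, stood at 0.27 and 0.32 with Rpb4, against 0.60 and 0.71 with Rpb3 (difference -0.36 ± 0.076 (SE), adjusted p = 0.0939). These 4 strain and tagged loci (HIS3, TRP1, RPB4 and RPB7) had a median difference of -0.28 and 0 passed in either direction. GAL10-GAL1, whose galactokinase and epimerase genes are repressed in glucose medium, stood at -0.19 and -0.22 with Rpb4, against -0.09 and -0.14 with Rpb3 (difference -0.09 ± 0.069 (SE), adjusted p = 0.47), with bodies of -0.61 and -0.09 with Rpb4, against -0.46 and -0.20 with Rpb3. Its gap was below the median probe with Rpb4 by the test and did not pass with Rpb3, and centred on the meiosis genes it stood at 0.33 with Rpb4 and 0.44 with Rpb3.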

How the data were processed

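Polymerase II occupancy was measured on 4 arrays, 2 for Rpb4 and 2 for Rpb3. The deposited files give foreground and background intensities of both channels, taken from Agilent Feature Extraction 9.1 by the submitters' processing notes, and normalized IP and WCE intensities. The authors' normalized intensities, checked on the values, are foreground minus local background minus a constant per array, with the WCE channel then scaled by 1 factor per array. About other software and the genome build the sources used here say nothing. A deposited table of the authors' log2 ratios was not used.

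Log2(IP/WCE) was computed from the normalized intensities and the median data probe of each array was subtracted, without loess or quantile normalization. Probes excluded (81 to 179 per array) or not positive on any array were left out. Region means over all 10905 regions entered 1 fit in R 4.3.3 with limma 3.58.1 (lmFit, eBayes) on all 4 arrays, with a coefficient per group and their difference. P-values are two-sided and adjusted by Benjamini-Hochberg at 0.05. Promoter minus body values were fitted likewise over 3774 promoter regions. The code was tested on simulated data. With 2 arrays a group, precision is limited by their number. Of the 2724 genes, 2717 matched the RefSeq table of the R64 assembly, which gave names and the genes between partners; positions are those of the files. Tables and figures were made in Python 3.11.15 with matplotlib 3.10.9, pandas 2.3.3 and numpy 2.4.6.

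The members, the 16 gene lists and the tests were chosen with earlier results of these data known. The naming rule took, per comparison, the 8 regions of largest positive and 6 of largest negative value past the threshold with all arrays one way (filled by smallest p), the 6 largest and 3 smallest promoter minus body values, the 6 widest partner differences, the 4 histone pairs, the pairs of GAL1, HIS3 and the tagged loci, and the highest and lowest region of each list. Its 72 pairs are not all described. 1 gene of a region that passed is not reported here by name. Pairs with a partner outside the RefSeq table (7) were left out of its ranked parts, in place of dubious reading frames. HTZ1-PLB3, TMA7-RED1, PMD1-GLC7, RPA49-CRS1 and 5 ribosomal protein pairs fall outside it and were chosen after their values were seen. A planned description of promoter motifs was not run, since no promoter sequence was used here. Alternatives covered background correction, scaling, centring, dim probes, single probes, each channel alone, the eBayes options, gaps with no other gene between, and each array left out.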

Additional observations from a re-analysis of the deposited data

Results flagged for a closer look

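For 10 pairs the Rpb4 minus Rpb3 difference itself passed the test, and all 10 calls were lost without the Rpb4 array 2. Rpb4 was lower at MRX19-LYS20 (-2.11), MCH4-RRI2 (-1.49), LEU4-MET4 (-1.05), COX9-IDP1 (-0.98), SET5-BAT1 (-0.96), GLY1-IES6 (-0.89), NOC4-ASN1 (-0.78), ILV5-ATG33 (-0.71) and HTA2-HTB2 (-0.67), and higher at YJL052C-A-TDH1 (0.74), all in log2 units with 2 arrays a group. These 10 are the passing pairs among those chosen by the naming rule. Among all 1362 divergent regions 38 (2.79%) were lower and 1 (0.0734%) was higher by the same test. Over all regions of every kind 2.34% were lower and 0.413% higher. The WCE signal moved the opposite way to the IP signal at each of the 10, from a WCE difference of 0.63 at MRX19-LYS20 to -0.38 at YJL052C-A-TDH1, and its part in the ratio was not tested. Groups of 2 arrays are too small for a test of single outlying arrays.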

How the results depend on the processing

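Settings are named once here: one scale sets the spread of the arrays equal, mean over probes replaces the median over regions, meiosis centring sets 0 at meiosis and sporulation genes, and no dim probes drops the probes of lowest WCE signal, which leaves fewer probes in a region. Divergent minus single-gene promoter level was -0.498 with Rpb4 and moved to -0.538 on one scale, -0.349 as mean over probes, -0.440 without dim probes, -0.423 with normexp and -0.546 with quantile normalization; with Rpb3 it was -0.429 and moved to -0.402, -0.302, -0.348, -0.363 and -0.397. Leaving out 1 array gave -0.506 to -0.490 with Rpb4 and -0.431 to -0.426 with Rpb3. Regions above and below the median probe with Rpb4 (182 and 740) became 672 and 82 with meiosis centring, and 447 and 1577 of the single probes; leaving out 1 array gave 70 to 265 and 167 to 956. With Rpb3 (368 and 477) they became 980 and 49, and 788 and 1116, and 278 to 497 and 330 to 644 without 1 array. For Rpb4 minus Rpb3 (1 higher, 38 lower) the counts were 2 and 18 on one scale, 0 and 9 with meiosis centring, 2 and 38 without dim probes, 2 and 83 with normexp, 4 and 82 with quantile normalization, 0 and 27 of single probes, 2 and 35 with a trended and robust eBayes fit, 2 and 49 from the IP signal alone, and 55 and 71 from the WCE signal with its sign turned. Leaving out 1 array gave 0 to 211 higher and 0 to 805 lower. Gaps above and below their gene bodies numbered 37 and 670 with Rpb4 (24 above without dim probes; 10 to 75 and 122 to 1006 without 1 array) and 121 and 395 with Rpb3 (76 to 304 and 285 to 631). For the difference between the groups (0 and 0) there were 2 lower on one scale, 1 higher and 1 lower with normexp, 11 lower with quantile normalization, and 0 to 187 higher and 0 to 595 lower without 1 array. Where 1 array is left, it is assumed to vary like the other group. Of the 10 pairs named for a passing difference, only MRX19-LYS20 kept its call without the Rpb4 array 1 and none kept it without the Rpb4 array 2; besides that, calls were lost on one scale (HTA2-HTB2, ILV5-ATG33, LEU4-MET4, NOC4-ASN1), with quantile normalization (HTA2-HTB2, ILV5-ATG33, NOC4-ASN1), normexp (HTA2-HTB2, ILV5-ATG33), meiosis centring (HTA2-HTB2, NOC4-ASN1, COX9-IDP1, SET5-BAT1, YJL052C-A-TDH1), no dim probes (ILV5-ATG33, SET5-BAT1) and the trended fit (HTA2-HTB2, NOC4-ASN1); their direction held in every setting, with the weakest values at -0.36 for HTA2-HTB2 and -0.41 for NOC4-ASN1. Meiosis centring adds 0.513 to 0.601 to every level and turned the sign of TDH2-MET3 (Rpb3 0.546), PGM2-YMR105W-A (Rpb3 0.391), MDH2-TRM13 (Rpb3 0.314), MRM1-HIS3 (Rpb4 0.510), HHO1-NAN1 (Rpb4 0.283, Rpb3 0.456), YPR159C-A-GPH1 (Rpb4 0.371), CYC3-CDC19 (Rpb4 0.257, Rpb3 0.475), GAL10-GAL1 (Rpb4 0.329, Rpb3 0.443), PHO5-PBY1 (Rpb3 0.425), COX9-IDP1 (Rpb4 0.460), MRX19-LYS20 (Rpb4 0.093), SOK1-TRP1 (Rpb4 0.261, Rpb3 0.489), GLY1-IES6 (Rpb4 0.505), YGL007C-A-YGL006W-A (Rpb4 0.259, Rpb3 0.333) and SET5-BAT1 (Rpb4 0.378). Dropping dim probes turned TDH2-MET3 (Rpb4 -0.610), ILV5-ATG33 (Rpb4 -0.263), ADH1-PHM7 (Rpb4 -0.162, Rpb3 -0.216), GLY1-IES6 (Rpb3 -0.278) and PUP2-ENO1 (Rpb4 -0.091). Of the other values of named pairs, 1146 kept their side of the threshold, 86 lost it and 104 gained it. The 1146 include values that changed sign where neither setting passed, such as the EPL1-BUD27 difference, which ranged from -0.177 to 0.27. The trended fit of gap minus bodies and the counts over gaps with no other gene between were added after seeing the data. No paired analysis was possible because the labels carry no replicate numbers shared between groups. Beyond these settings, 2 arrays a group and fragments longer than many gaps limit what single regions can show.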

Other observations

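In 5 divergent gaps both partners encode cytosolic ribosomal proteins, a set picked out after values had been seen. RPS15-RPP2A was the highest, at 1.06 and 1.05 with Rpb4, against 1.68 and 1.80 with Rpb3. RPL24A-RPL30 stood at 0.94 and 0.92 with Rpb4, against 1.42 and 1.44 with Rpb3. RPS22A-RPL39 stood at 0.59 and 0.53 with Rpb4, against 1.21 and 1.22 with Rpb3. RPL13B-RPS16A and its paralogous pair RPS16B-RPL13A were lower, at 0.17 and 0.14 and at 0.21 and 0.11 with Rpb4, against 0.71 and 0.78 and 0.81 and 0.56 with Rpb3. In each of the 5 gaps both Rpb4 arrays lay below both Rpb3 arrays, and the gap lay below both of its gene bodies in each group. The RPS16B-RPL13A difference of -0.53 did not pass (adjusted p = 0.0970, limma), and the other 4 passed.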
